A study of Mus musculus with 6 samples.

Results

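The Wnt pathway was examined through 45 genes of its ligands, receptors, antagonists and effectors in injured mouse carotid arteries that did or did not overexpress IRF9, a transcription factor of interferon signalling, in smooth muscle. Of these genes, 44 were measured, out of 18193 genes named on the array. They comprise 13 Wnt ligands, 2 R-spondins, 12 receptors, 10 antagonists and 7 effectors or target genes. Members were found by gene symbol in the array annotation for 43 genes and by gene identifier for Wisp2, which is listed under its later symbol Ccn5. No value is given for Tcf7. Together the members are read by 98 probe sets, and each gene was taken by its probe set of highest mean over the 6 arrays, with the others given beside it.

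SMC-IRF9-TG mice carry the full-length mouse IRF9 cDNA with an HA tag and an SV40 polyadenylation signal, driven by the mouse SM22α promoter, which is active in smooth muscle. Several transgenic lines were made, and the paper states that the line with the highest IRF9 protein level was chosen for its later phenotypic work. The labels do not name the line of these arrays. NTG mice are non-transgenic controls. The strain is C57BL/6 per the labels and C57BL/6J per the description of the transgenic animals, and the methods describe male mice aged 10 to 12 weeks. In both groups the left carotid artery was injured with a guidewire and collected on day 14, so the arrays hold no uninjured vessel. Each group had 3 arrays, and each array was hybridized with 400 ng of RNA from 1 pool of 3 to 5 vessels. Which animals entered a pool is not stated, so p-values measure the spread between pools. All levels below are deposited log2 RMA values. A difference is the mean of the SMC-IRF9-TG pools less that of the NTG pools, so 1 unit is a doubling. A gene is called higher or lower where its limma p, adjusted over all 45037 probe sets, is under 0.05.

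Wnt ligands are secreted lipid-modified glycoproteins that bind Frizzled receptors together with the co-receptors Lrp5 and Lrp6. In the canonical branch this inhibits the Axin, Apc and Gsk3b complex, β-catenin accumulates, and it activates target genes with Tcf and Lef factors. Ror1 and Ror2 serve β-catenin-independent branches. R-spondins raise the amount of Frizzled at the cell surface. Secreted Frizzled-related proteins (Sfrp1, Sfrp2, Sfrp4, Sfrp5 and Frzb) and Wif1 bind Wnt ligands, whereas Dickkopf proteins such as Dkk1 and Dkk2 bind Lrp5 and Lrp6. In injured arteries this pathway has been studied for its part in smooth muscle proliferation and migration.

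Several properties of the arrays bear on these values. Irf9 read 4.75, 5.43 and 5.36 in NTG and 5.46, 5.41 and 5.58 in SMC-IRF9-TG, and the groups overlapped. Whether this probe set reads the transgene is not known here. The level of Xist, an RNA made in female cells, was 9.94 in NTG pool 1 and 9.50 in NTG pool 2, against 2.94 to 4.08 elsewhere, although male mice are described. The poly-A control transcripts averaged 4.33 in SMC-IRF9-TG pool 1 and 3.95 in SMC-IRF9-TG pool 2, against 6.36 to 9.72 elsewhere. In NTG pool 2 the 3′ probe sets of Actb read 7.09 above its 5′ probe sets, against 1.56 to 3.04 elsewhere. The smooth muscle marker Acta2 read between 13.28 and 13.63 in all arrays, and none of the 8 smooth muscle markers was called. Others varied more, and Tagln read 11.67, 10.05 and 12.40 in NTG and 12.34, 12.62 and 12.49 in SMC-IRF9-TG. The differences of the 8 markers ran from -0.57 to 1.11, with 5 positive and 3 negative. A summed level here is the log2 of the sum of the unlogged levels of a list's markers, so the brightest markers set most of it. That of the smooth muscle markers was 13.83 to 14.41 in NTG and 14.38 to 14.44 in SMC-IRF9-TG. All 10 macrophage markers were higher, with a summed level of 7.38 to 8.18 in NTG and 11.82 to 12.29 in SMC-IRF9-TG. Of 6 fibroblast markers 3 were higher, with a summed level of 9.55 to 9.86 in NTG and 11.63 to 12.38 in SMC-IRF9-TG. Of 6 endothelial markers Tie1 was higher, with summed levels of 9.01 to 10.69 and 9.70 to 9.79. Of 5 thyroid and epithelial markers Cdh1 was lower (difference -1.38, limma adjusted p = 0.0352), and their summed level was 7.59 to 7.65 in NTG and 7.22 to 7.49 in SMC-IRF9-TG. None of 7 skeletal muscle markers was called, although their summed level did not overlap either (6.53 to 6.78 in NTG and 6.22 to 6.44 in SMC-IRF9-TG). The part of these differences in the results for the Wnt genes was not tested. In whole vessels, more cells of a type and more RNA per cell cannot be told apart.

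Among the Wnt genes, 4 were higher in SMC-IRF9-TG arteries (Frzb, Dkk2, Wisp2 and Rspo3), 3 were lower (Dkk1, Sfrp5 and Sfrp4) and 37 were not called. By exact symbol alone, without Wisp2, the count was 3 higher and 3 lower. The members called higher are 9.09% of those measured, beside 3.11% of all genes, and the members called lower are 6.82%, beside 0.511% of all genes. The members were chosen with earlier results of these data known, and the paper lists Dkk1, Sfrp5 and Sfrp4 as lower on these arrays. The shares therefore describe the list and are no test of it. The groups did not overlap for 16 members, 10 with SMC-IRF9-TG above and 6 with it below, beside 32.2% of all genes whose groups did not overlap. The median difference of the members was 0.10, and that of all genes was -0.05. By role, 5 of the 10 antagonists, 1 of the 2 R-spondins and 1 of the 7 effectors or target genes were called, and no ligand and no receptor was called.

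**Figure D1:**
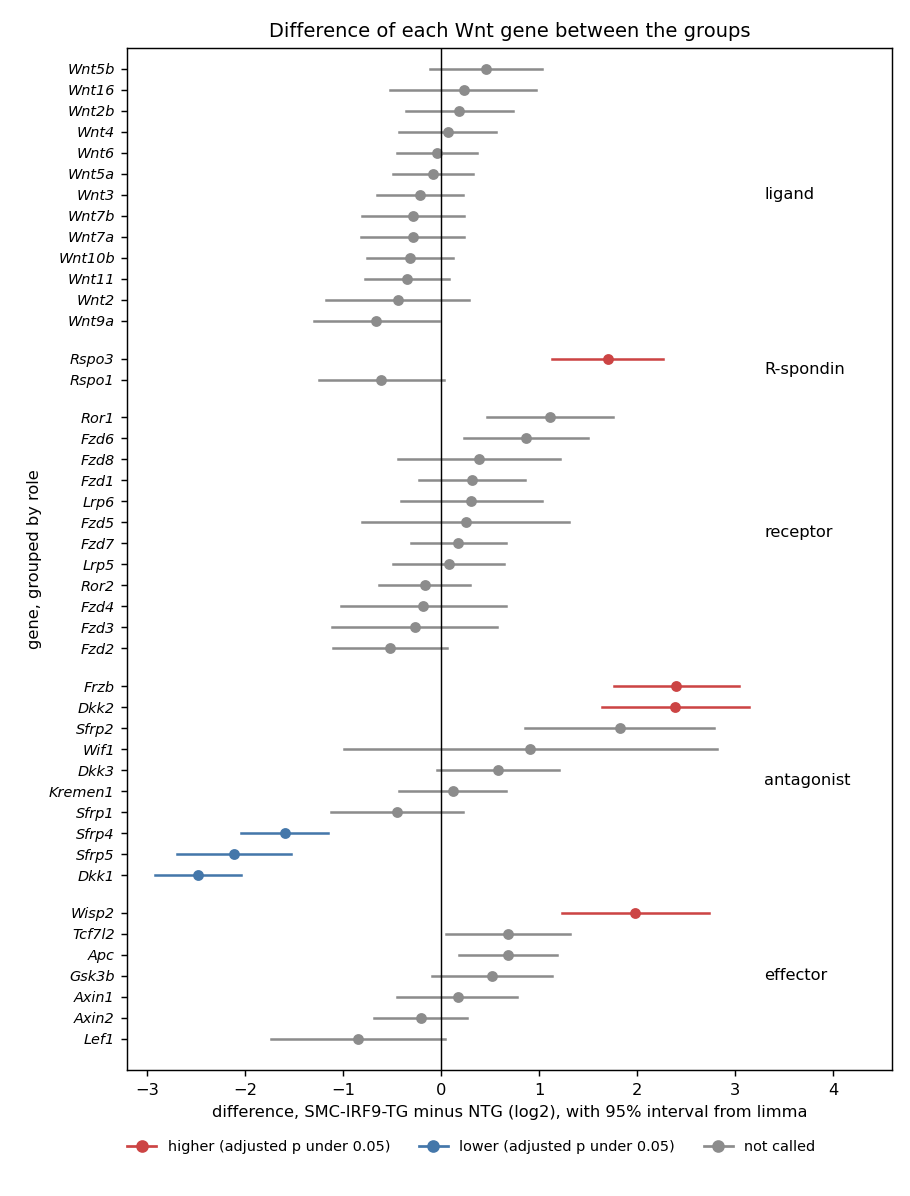
Difference of each measured Wnt gene between SMC-IRF9-TG and NTG arteries (x axis, log2, points) with its 95% interval from limma (lines), grouped by role on the y axis. Red genes were called higher, blue genes lower and grey genes were not called. The intervals of Frzb, Dkk2, Wisp2 and Rspo3 lie wholly above 1, those of Dkk1, Sfrp5 and Sfrp4 lie wholly below -1, and the 13 ligands lie between -0.66 and 0.46.

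For 4 of the 7 called genes the RefSeq promoter table (GRCm38.p6) holds the 250 bases before the transcription start. They are shown because these 4 antagonists moved in opposite directions, and capitals mark CTTTG on either strand (CAAAG on the reverse), the core of the motif that Tcf and Lef proteins bind. The Dkk1 window lies at chr19:30549497-30549746 and the Sfrp5 window at chr19:42202253-42202502, both on the minus strand, and both genes were lower. The Frzb window lies at chr2:80447397-80447646 on the minus strand and the Dkk2 window at chr3:132085042-132085291 on the plus strand, and both genes were higher.
Dkk1: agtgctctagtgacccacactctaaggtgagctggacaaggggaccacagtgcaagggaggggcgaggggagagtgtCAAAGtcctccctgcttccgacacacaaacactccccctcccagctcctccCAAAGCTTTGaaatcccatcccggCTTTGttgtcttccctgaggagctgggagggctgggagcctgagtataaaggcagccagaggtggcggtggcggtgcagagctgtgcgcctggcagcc
Sfrp5: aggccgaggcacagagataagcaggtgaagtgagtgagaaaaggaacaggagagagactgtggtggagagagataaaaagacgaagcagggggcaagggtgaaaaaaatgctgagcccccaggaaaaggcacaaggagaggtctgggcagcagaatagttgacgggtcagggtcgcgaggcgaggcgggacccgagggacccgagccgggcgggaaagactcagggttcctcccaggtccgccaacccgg
Frzb: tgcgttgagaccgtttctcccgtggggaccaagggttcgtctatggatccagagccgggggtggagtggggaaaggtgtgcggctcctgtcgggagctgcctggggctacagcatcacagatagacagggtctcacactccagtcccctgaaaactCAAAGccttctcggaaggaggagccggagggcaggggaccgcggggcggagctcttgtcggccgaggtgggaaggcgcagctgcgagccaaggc
Dkk2: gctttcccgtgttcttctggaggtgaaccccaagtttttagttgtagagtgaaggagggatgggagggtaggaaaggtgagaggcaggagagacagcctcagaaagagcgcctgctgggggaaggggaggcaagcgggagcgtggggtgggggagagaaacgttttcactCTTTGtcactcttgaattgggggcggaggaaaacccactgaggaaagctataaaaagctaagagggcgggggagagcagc

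The Dkk1 window held 4 copies of CTTTG, the Frzb and Dkk2 windows held 1 each, and the Sfrp5 window held 0. In Dkk1 the copies began 173, 122, 117 and 98 bases before the start, and the middle 2 abut each other as 1 run of capitals. Of all 32851 promoter windows of this length, 48.6% held CTTTG at least once on either strand. The longer CTTTGA, counted on both strands and a part of the same matches, occurred 2 times in Dkk1 and 1 time in Frzb, and 13.8% of all windows held it. TATAAA on the given strand began 54 bases before the start in Dkk1 and 32 bases before it in Dkk2, and 7.59% of all windows held it. A pair of GAAA separated by 2 bases, a pattern of interferon-stimulated response elements, was searched on both strands and was not found in these 4 windows, and 2.98% of all windows held it. These matches describe the letters of each window and are not binding sites.

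Dkk1, a secreted inhibitor of the Lrp5 and Lrp6 co-receptors, had the smallest adjusted p of the Wnt genes. Its level was 5.32, 5.03 and 4.98 in NTG and 2.77, 2.58 and 2.55 in SMC-IRF9-TG. All SMC-IRF9-TG pools lay more than 2 log2 units under the lowest NTG pool. Dkk1 fell by 2.48 (standard error 0.19, 95% interval -2.92 to -2.04, limma adjusted p = 9.2e-04), a 5.57-fold difference. Its SMC-IRF9-TG levels lay close above the lower quartile of their arrays, which was 2.33 to 2.41. The other Dkk1 probe set had a mean under the lower quartile in both groups and was not called (limma adjusted p = 0.366).

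Dkk2, a relative of Dkk1 that also binds these co-receptors, went the opposite way. It read 2.75, 3.00 and 2.76 in NTG and 4.69, 6.01 and 4.98 in SMC-IRF9-TG. The groups were well separated, and SMC-IRF9-TG pool 2 was the highest. Dkk2 rose by 2.39 (standard error 0.33, 95% interval 1.64 to 3.14, limma adjusted p = 0.00977), a 5.24-fold difference, and it has 1 probe set. Its NTG levels lay close above the lower quartile of those arrays, which was 2.57 to 2.66, and detection was not checked, so the fold is set against a level near the lowest ones. Dkk3, a member of the family for which binding to these co-receptors is not established, read 7.88, 7.86 and 7.03 in NTG and 7.96, 8.18 and 8.37 in SMC-IRF9-TG. Its groups did not overlap, but the gap was small and Dkk3 was not called (difference 0.58, 95% interval -0.04 to 1.20, limma adjusted p = 0.245). Its other probe set differed by 1.05 (limma adjusted p = 0.084). Kremen1, a receptor for Dickkopf proteins, differed by 0.12 and was not called (limma adjusted p = 0.778).

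The secreted Frizzled-related proteins also differed in both directions. Frzb, which binds Wnt ligands and is known from cartilage, read 6.74, 7.21 and 6.54 in NTG and 9.03, 9.73 and 8.94 in SMC-IRF9-TG. Every SMC-IRF9-TG pool lay above every NTG pool, and Frzb rose by 2.40 (standard error 0.28, 95% interval 1.77 to 3.04, limma adjusted p = 0.00505), a 5.3-fold difference. Its other probe set read 3.69, 3.36 and 2.78 in NTG and 4.86, 6.91 and 5.36 in SMC-IRF9-TG. That set also rose, by 2.43 (standard error 0.49, limma adjusted p = 0.0408), so that Frzb is the only member with 2 probe sets called.

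Sfrp5, a Wnt-binding inhibitor known from adipose tissue, read 6.05, 5.90 and 5.67 in NTG and 3.56, 3.47 and 4.26 in SMC-IRF9-TG. It fell by 2.11 without overlap (standard error 0.26, 95% interval -2.69 to -1.53, limma adjusted p = 0.00598), a 4.32-fold difference, whereas its dimmer probe set differed by -0.13 (limma adjusted p = 0.743). The adipocyte marker Adipoq read between 2.10 and 2.47 in all arrays, and none of 5 adipocyte markers was called. The summed level of those markers was 8.96 to 9.46 in NTG and 8.17 to 9.09 in SMC-IRF9-TG. It was set almost wholly by Fabp4, which read 9.02, 9.40 and 8.82 in NTG and 8.71, 9.01 and 7.98 in SMC-IRF9-TG. The means of Adipoq and Cidec lay under the lower quartile of the arrays in both groups, so this sum does not describe the whole list. Sfrp4, a member of the same family, read 8.23, 8.51 and 8.10 in NTG and 6.59, 6.74 and 6.73 in SMC-IRF9-TG. Its pools lay close together within each group, and Sfrp4 fell by 1.59 (standard error 0.19, 95% interval -2.04 to -1.15, limma adjusted p = 0.00627), a 3.01-fold difference by its single probe set.

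Sfrp2, a secreted Wnt modulator of stromal cells, read 8.89, 8.86 and 8.15 in NTG and 10, 9.90 and 11.48 in SMC-IRF9-TG. The groups did not overlap, and SMC-IRF9-TG pool 3 stood above the other 2. Its difference of 1.83 was not called (standard error 0.42, 95% interval 0.86 to 2.79, limma adjusted p = 0.0638), and of the alternatives it passed with a trended and robust variance prior (limma adjusted p = 0.0494) and when dim probe sets were left out (0.0382). It did not pass after quantile normalization (limma adjusted p = 0.143), with the replicate number as a block (0.109), by the methods' t-test (0.234) or without SMC-IRF9-TG pool 3, where the difference was 1.32 (0.113). Sfrp1, another of these Wnt-binding proteins, differed by -0.45 by its brightest probe set (limma adjusted p = 0.372), and its 5 probe sets ranged from -0.45 to 0.52 with none called. Wif1 varied most within its groups, with 4.37, 3.35 and 6.90 in NTG and 4.89, 6.82 and 5.66 in SMC-IRF9-TG. Its difference of 0.91 had a 95% interval from -0.99 to 2.82 (limma adjusted p = 0.517), so a change of 1 unit in Wif1 could not be detected or set aside with these arrays.

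**Figure D2:**
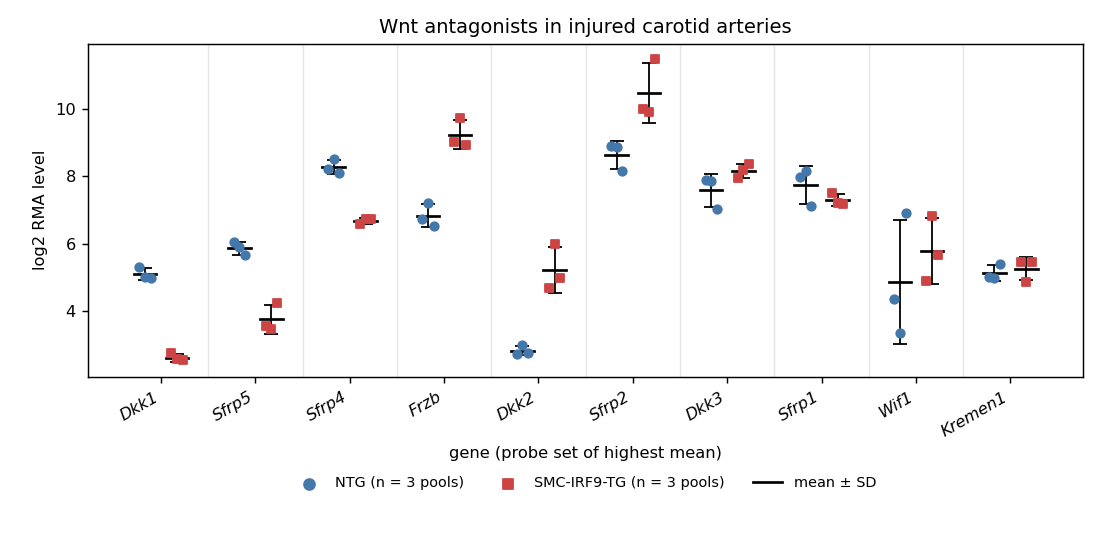
Log2 RMA level (y axis) of the 10 Wnt antagonists (x axis) in the 3 NTG pools (blue circles) and the 3 SMC-IRF9-TG pools (red squares), with black bars for the mean ± SD. Dkk1, Sfrp5 and Sfrp4 were lower in every SMC-IRF9-TG pool, Frzb, Dkk2, Sfrp2 and Dkk3 were above every NTG pool although Sfrp2 and Dkk3 were not called, and Wif1 ranged from 3.35 to 6.90 within NTG.

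Of the 2 R-spondins, which amplify Wnt signals at the receptor, Rspo3 was higher. It read 4.16, 4.52 and 4.89 in NTG and 5.92, 6.39 and 6.36 in SMC-IRF9-TG. Rspo3 rose by 1.70 without overlap (standard error 0.25, 95% interval 1.13 to 2.27, limma adjusted p = 0.0126), a 3.24-fold difference. Its other probe set had a mean under the lower quartile in both groups and was not called (limma adjusted p = 0.608). The call of Rspo3 was lost without SMC-IRF9-TG pool 2 (limma adjusted p = 0.0738), without pool 3 (0.0625) and when its probe sets were averaged, where the difference was 0.73 (0.109). Rspo1 read 2.96, 3.53 and 2.73 in NTG and 2.89, 2.29 and 2.23 in SMC-IRF9-TG. These values overlapped, and the difference of -0.61 was not called (95% interval -1.24 to 0.03, limma adjusted p = 0.24).

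None of the 13 Wnt ligands was called. Their differences ran from -0.66 to 0.46 with a median of -0.21, 9 were negative and 4 positive, and the 95% interval of 10 ligands lay within 1 log2 unit of 0 on both sides. Of all genes, 53.7% had a negative difference. The ligands were dim, with a median level of 3.33 to 3.89 over the arrays. The lower quartile was lower in SMC-IRF9-TG (2.33 to 2.41) than in NTG (2.57 to 2.66), so no direction is read from these counts. By brightest probe set, 1 ligand had an unadjusted limma p under 0.05, Wnt9a. This ligand, known from joint and limb development, read 5.57, 5.13 and 4.52 in NTG and 4.59, 4.45 and 4.21 in SMC-IRF9-TG. The groups overlapped between NTG pool 3 and SMC-IRF9-TG pool 1, and Wnt9a differed by -0.66 (95% interval -1.30 to -0.02, limma adjusted p = 0.216). Its other probe set had a mean under the lower quartile in both groups and was not called either. A dimmer probe set of Wnt6 differed by -0.73 and 1 of Wnt5a by -0.55, both without overlap (unadjusted limma p of 0.0281 and 0.0408). Neither was called (limma adjusted p of 0.179 and 0.207). The SMC-IRF9-TG mean of that Wnt6 probe set lay under the lower quartile of those arrays, so the size of its difference is not known.

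Wnt7a read 5.60, 5.46 and 5.88 in NTG and 5.57, 4.99 and 5.52 in SMC-IRF9-TG, and a second probe set of this developmental ligand differed by -0.26. Wnt7b, its close relative, read 5.54, 5.77 and 6.06 in NTG and 5.52, 5.23 and 5.75 in SMC-IRF9-TG. Both overlapped between the groups and differed by -0.29 by their brightest probe sets (limma adjusted p of 0.453 for Wnt7a and 0.449 for Wnt7b). Wnt5a, the best known ligand of the β-catenin-independent branch, differed by -0.08 by its brightest probe set (95% interval -0.49 to 0.33), and its 4 probe sets ranged from -0.55 to 0.13. Wnt11, another ligand of that branch, read 4.18, 3.87 and 4.06 in NTG and 3.66, 3.78 and 3.61 in SMC-IRF9-TG. The Wnt11 groups did not overlap, yet the difference of -0.35 was not called (limma adjusted p = 0.291). The mean of Wnt3 lay under the lower quartile of the arrays in both groups, and those of Wnt2b and Wnt5b did so in NTG, so whether these ligands were detected there is not known and the sizes of their differences, 0.46 of Wnt5b among them, are not known either.

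**Figure D3:**
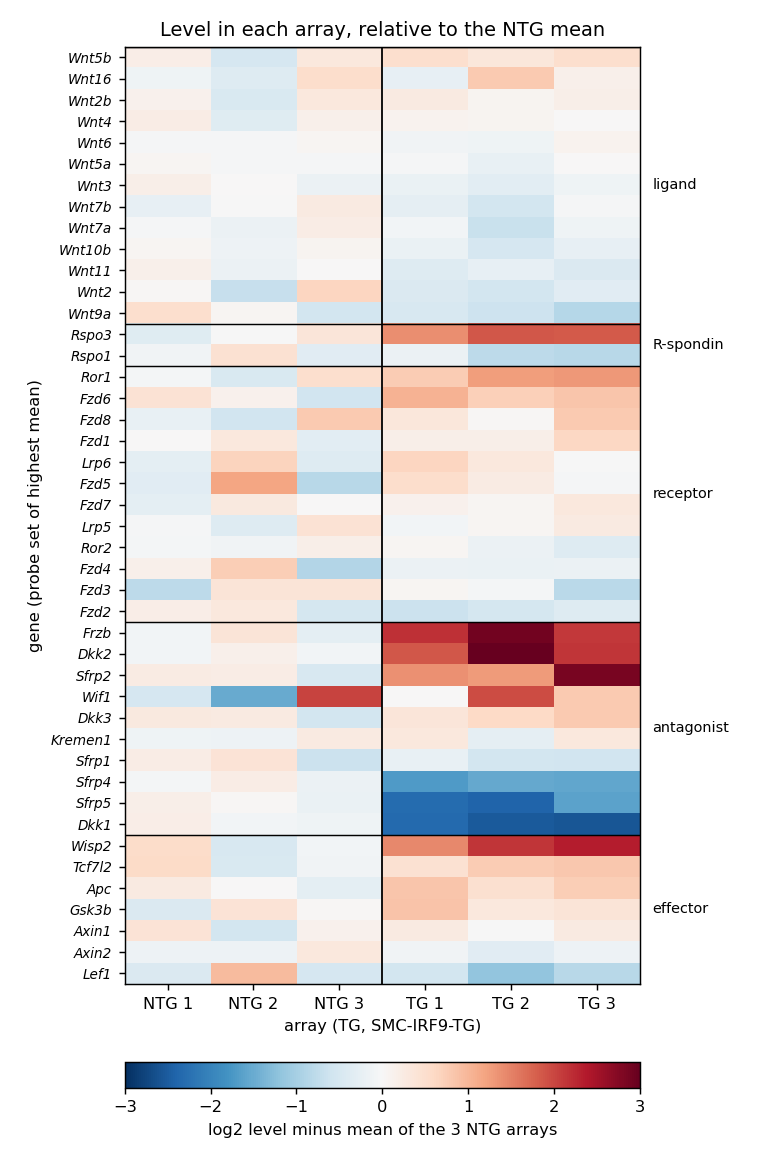
Level of each measured Wnt gene (rows, grouped by role) in each of the 6 arrays (columns; TG, SMC-IRF9-TG), as its log2 RMA level minus the mean of the 3 NTG arrays (colour scale). The called genes keep their colour across all 3 SMC-IRF9-TG arrays, while the ligands and most receptors stay pale, and Wif1 varies most among the NTG arrays.

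None of the 12 receptors was called, and by brightest probe set 2 had an unadjusted limma p under 0.05, Ror1 and Fzd6. Ror1, a receptor tyrosine kinase that binds Wnt5a, read 5.71, 5.32 and 6.28 in NTG and 6.54, 7.03 and 7.07 in SMC-IRF9-TG. The Ror1 groups did not overlap and differed by 1.11 (standard error 0.28, 95% interval 0.47 to 1.76, limma adjusted p = 0.082). Its second probe set differed by -0.50 without overlap and was not called (limma adjusted p = 0.218), so these probe sets had opposite signs. The mean of the remaining Ror1 probe set lay under the lower quartile in both groups. Fzd6 differed by 0.87 by its brightest probe set (limma adjusted p = 0.136) and by -0.32 and -0.27 by the others.

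Fzd1, Fzd2 and Fzd7 are Frizzled receptors whose probe sets had the highest mean values among the receptors, which is no order of expression between genes. Fzd1 read 8.13, 8.44 and 7.80 in NTG and 8.29, 8.30 and 8.74 in SMC-IRF9-TG, a difference of 0.32 with overlapping groups (limma adjusted p = 0.424). Fzd2 read 7.49, 7.60 and 6.76 in NTG and 6.64, 6.75 and 6.90 in SMC-IRF9-TG, a difference of -0.52 (limma adjusted p = 0.261), and its 2 other probe sets differed by 0.49 and 0.82. Fzd7 read 6.60, 7.17 and 6.89 in NTG and 7.02, 6.95 and 7.21 in SMC-IRF9-TG, a difference of 0.17 (95% interval -0.31 to 0.66, limma adjusted p = 0.63), which became -0.12 after quantile normalization. The groups of all 3 receptors overlapped. Fzd4, a receptor of vascular endothelium, differed by -0.18 by its brightest probe set and by -0.83, without overlap, by its second (limma adjusted p = 0.0791). The co-receptor Lrp6 differed by 0.31, with a 95% interval of -0.41 to 1.03. The co-receptor Lrp5 was not called (limma adjusted p = 0.866), and its NTG mean lay under the lower quartile of those arrays.

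**Figure D4:**
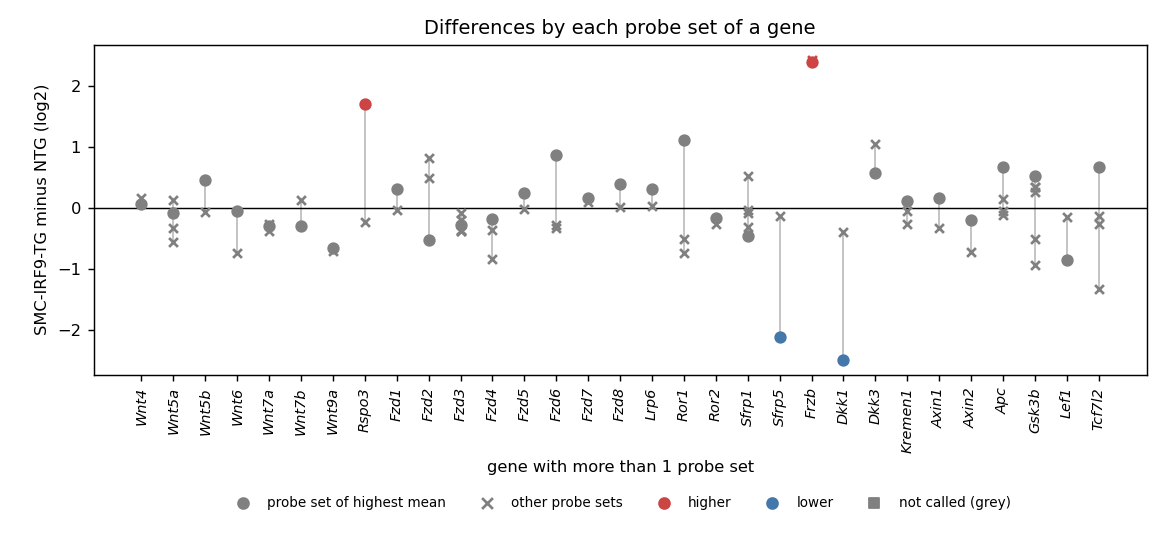
Difference between SMC-IRF9-TG and NTG arteries (y axis, log2) by each probe set of the Wnt genes that have more than 1 (x axis). Circles are the probe set of highest mean and crosses the others, with red for higher, blue for lower and grey for not called. The 2 probe sets of Frzb lie together at 2.40 and 2.43, whereas only 1 probe set each of Rspo3, Sfrp5 and Dkk1 was called.

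Among the 31 members with more than 1 probe set, the probe sets had the same sign in 16 and both signs in 15, counting probe sets whose mean lay under the lower quartile of the arrays. Tcf7l2, the Tcf family factor that acts with β-catenin, differed by 0.68 by its brightest probe set (limma adjusted p = 0.201) and by -1.32 by the next (limma adjusted p = 0.0516). Apc and Gsk3b belong to the complex that marks β-catenin for destruction. Apc read 6.45, 6.19 and 5.87 in NTG and 7.0, 6.65 and 6.90 in SMC-IRF9-TG, a difference of 0.68 without overlap (limma adjusted p = 0.136), and its other probe sets ranged from -0.11 to 0.15. Gsk3b read 6.27, 7.11 and 6.74 in NTG and 7.57, 7.03 and 7.09 in SMC-IRF9-TG, a difference of 0.52 (limma adjusted p = 0.276), and its 6 probe sets ranged from -0.94 to 0.52. Neither gene was called by any probe set, and their probe sets pointed both ways.

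Wisp2, a matricellular protein of the CCN family and a target of Wnt1 in epithelial cells, was the only effector or target gene among the members that was called. It read 6.76, 5.73 and 6.12 in NTG and 7.65, 8.35 and 8.57 in SMC-IRF9-TG. Wisp2 rose by 1.98 without overlap (standard error 0.33, 95% interval 1.23 to 2.73, limma adjusted p = 0.0198), a 3.96-fold difference by its single probe set. The call was lost without SMC-IRF9-TG pool 2 (limma adjusted p = 0.102), without pool 3 (0.0825), after quantile normalization (0.0553) and with the replicate number as a block (0.0505). Axin2, a direct target of β-catenin in many tissues, read 3.95, 3.97 and 4.42 in NTG and 4.0, 3.77 and 3.95 in SMC-IRF9-TG. Its groups overlapped, and the difference was -0.20 (95% interval -0.68 to 0.27, limma adjusted p = 0.56). Lef1, which is both a partner and a target of β-catenin, read 4.07, 5.45 and 4.0 in NTG and 3.96, 3.32 and 3.68 in SMC-IRF9-TG, a difference of -0.85 that was not called although the groups did not overlap (95% interval -1.73 to 0.04, limma adjusted p = 0.238).

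Beyond these genes, 79 other genes of the pathway were measured. Of them 7 were higher, or 8.86% beside 3.11% of all genes, and 0 were lower by limma, although 22 had an unadjusted p under 0.05 in either direction. Their median difference was -0.04. Of the 12 genes listed as Wnt targets, 6 were higher: Wisp1, Ccnd1, Myc, Cd44, Birc5 and Jun. All of these genes respond to other signals too. The list of other pathway genes was also chosen with earlier results of these data known. The paper lists Ccnd1, Myc and Jun as higher on these arrays, so the counts and shares are descriptive only. The Ccnd1 entry of the paper is a probe set other than those assigned to Ccnd1 here, so its size cannot be compared. Primers for the paper's real-time PCR include Ccnd1 but not Myc or Jun. Wisp1, a CCN protein like Wisp2 and listed as Ccn4, read 4.55, 3.61 and 3.64 in NTG and 5.80, 6.02 and 6.86 in SMC-IRF9-TG. It rose by 2.29 by its brightest probe set (limma adjusted p = 0.015) and by 3.31 by the other (0.0101). Ccnd1, the cyclin D1 gene, had NTG levels of 6.54, 6.46 and 6.47 and SMC-IRF9-TG levels of 7.71, 7.60 and 7.87, and rose by 1.23 (limma adjusted p = 0.013). Every SMC-IRF9-TG pool of Wisp1 and Ccnd1 lay above every NTG pool. Myc, a growth-promoting transcription factor, had NTG levels of 4.87, 3.58 and 4.84 and SMC-IRF9-TG levels of 5.82, 6.18 and 6.42, and rose by 1.71 (limma adjusted p = 0.047). Cd44, a hyaluronan receptor gene, had NTG levels of 5.20, 6.82 and 6.22 and SMC-IRF9-TG levels of 8.66, 7.85 and 8.16, and rose by 2.14 (limma adjusted p = 0.0316), with 2 of its 4 probe sets called. Jun, of the AP-1 complex, had NTG levels of 5.52, 5.70 and 4.84 and SMC-IRF9-TG levels of 8.09, 7.40 and 7.98, and rose by 2.47 (limma adjusted p = 0.00505), while another of its probe sets differed by -0.32. These 3 genes also had groups that did not overlap. Birc5, a gene of mitosis, was higher, at 4.94, 5.38 and 4.58 in SMC-IRF9-TG against 2.79, 2.06 and 2.73 in NTG, with a size not known because its NTG mean lay under the lower quartile of those arrays. Id2, a regulator of differentiation, read 8.22, 8.60 and 8.85 in NTG and 8.83, 9.40 and 8.61 in SMC-IRF9-TG, and its difference of 0.39 was not called. Without 1 of the arrays the number of these pathway genes called higher was 2 to 6, with 2 when SMC-IRF9-TG pool 2 was left out, 3 without SMC-IRF9-TG pool 1 or 3 and 4 without NTG pool 1.

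**Figure D5:**
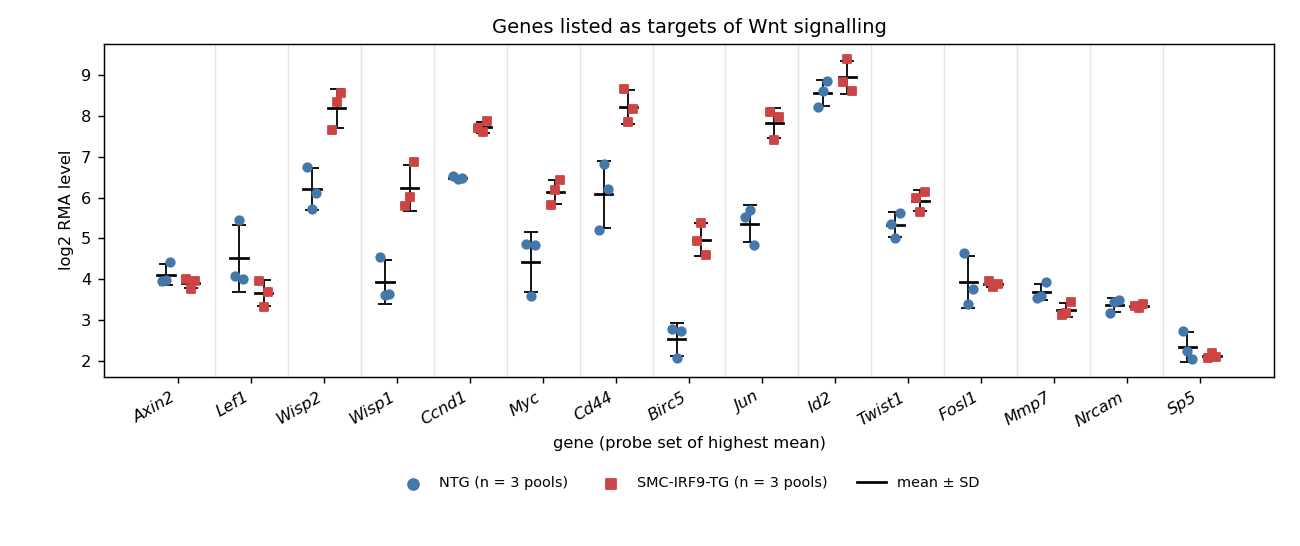
Log2 RMA level (y axis) of 15 genes known as targets of Wnt signalling (x axis; Axin2, Lef1 and Wisp2 are members of the list of 45 genes, the others belong to the wider pathway list) in 3 NTG (blue circles) and 3 SMC-IRF9-TG pools (red squares), with black bars for the mean ± SD. Wisp2, Wisp1, Ccnd1, Myc, Cd44, Birc5 and Jun were higher in every SMC-IRF9-TG pool, whereas Axin2 overlapped between the groups near 4.0.

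Wls, the carrier that Wnt ligands need for secretion, was the remaining gene called higher. It read 7.46, 7.63 and 7.63 in NTG and 8.28, 8.61 and 8.48 in SMC-IRF9-TG, a rise of 0.88 without overlap (limma adjusted p = 0.0495), and 1 of its 3 other probe sets rose by 1.81 (0.0304). The next brightest Wls probe set differed by 0.43 and was not called (limma adjusted p = 0.274), and the mean of the remaining one lay under the lower quartile in both groups. Ctnnb1, the gene of β-catenin, read 10.43, 10.97 and 10.23 in NTG and 11.21, 10.88 and 11.06 in SMC-IRF9-TG by its brightest probe set. That probe set was not called (difference 0.51, limma adjusted p = 0.25), while another one rose by 1.88 from 6.87, 6.75 and 6.06 to 7.95, 8.92 and 8.45 (0.0198) and the remaining one differed by 1.20 (0.0537). The paper lists Ctnnb1 as higher on these arrays by both of these dimmer probe sets and not by the brightest. Sost, a secreted Lrp5 and Lrp6 inhibitor known from bone, read 10.02, 8.81 and 10.20 in NTG and 9.86, 9.43 and 9.88 in SMC-IRF9-TG, and differed by 0.05. Lgr6, a receptor for R-spondins, read 8.84, 8.75 and 8.30 in NTG and 7.65, 8.01 and 8.21 in SMC-IRF9-TG, a difference of -0.67 that was not called (limma adjusted p = 0.158).

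The calls of Dkk1, Sfrp4, Sfrp5, Frzb and Dkk2 were kept when any 1 array was left out, with limma adjusted p of at most 0.0499, reached by Dkk2. When NTG pools 1 and 2, those with high Xist, were both left out, Dkk1, Frzb and Sfrp4 remained called, and Sfrp5, Dkk2, Wisp2 and Rspo3 did not pass (limma adjusted p of 0.0545 to 0.0623). When SMC-IRF9-TG pools 1 and 2, those with low poly-A controls, were left out, none of the 7 genes passed (limma adjusted p of 0.121 to 0.485), and 24 probe sets were called in all, but each difference kept its sign. In both fits a single pool stands for its group and is assumed to vary like the others. The methods' t-test on the same values, adjusted over all probe sets, passed none of the 7 genes and called 1 probe set in all. For each of the 7 genes an exact permutation test of the 3 against 3 pools gave a 2-sided p of 0.1, the smallest this design allows.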

How the data were processed

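Carotid artery RNA of 3 NTG and 3 SMC-IRF9-TG pools was measured on 6 Affymetrix arrays, and groups were taken from the submitters' sample titles. The authors deposited log2 probe-set levels made with RMA in Affymetrix Expression Console, which corrects background, quantile-normalizes and summarizes probes into sets, per the submitters' processing notes. Their versions were not given in the sources used here. Scanner files were not used here, so detection above background was not checked, and the size of a difference is taken as not known where the mean of a group is below the lower quartile of that group's arrays (2.57 to 2.66 in NTG, 2.33 to 2.41 in SMC-IRF9-TG). Counts, medians and plots keep the fitted values of such probe sets. The array medians were 3.42 to 3.66. No normalization was added, although these lower quartiles differed between the groups. Repeating quantile normalization on the deposited levels moved the differences of Fzd1 from 0.32 to 0.06 and of Sfrp4 from -1.59 to -1.87. Dkk1 stayed at -2.48, and Rspo1 went from -0.61 to -0.42. The number of arrays limits the precision.

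Without 64 controls, 45037 probe sets were fitted in limma 3.58.1 (R 4.3.3; lmFit, eBayes) with 2-sided tests and Benjamini-Hochberg adjustment over all of them, at 0.05. The paper states an independent t-test for its experiments but no method for the array, so that test was an alternative. Genes were named from the 34945 probe sets with 1 gene. Wisp2 and Wisp1 were matched by gene identifier to Ccn5 and Ccn4. Comparisons with all genes use the probe set of highest mean of each of 18193 genes. The fit was tested on simulated data. Other steps used pandas 2.3.3, numpy 2.4.6, scipy 1.17.1 and, for the plots, matplotlib 3.10.9 under Python 3.11.15.

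The members, the other pathway genes, the cell type markers and the tests were chosen with earlier results of these data known. Values in every array were to be given for called members and for the 3 of highest mean in each role, and of the other pathway genes for those called and the 1 of highest level in each role; other members are given by difference or range, and those with values in every array outside this rule (Wif1, Ror1, Wnt11, Axin2, Lef1) were added after their values were seen. The highest mean in a role is an order of probe-set levels only. Promoter windows came from RefSeq (GRCm38.p6) and were found for 28 of the 44 measured members. Alternatives were a trended and robust prior, the t-test, a replicate block, median centring, quantile normalization, a filter on dim probe sets, the mean over the probe sets of each gene, an adjusted p under 0.1, each array left out, and 2 fits without pairs of arrays that were chosen after seeing the data.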

Additional observations from a re-analysis of the deposited data

How the results depend on the processing

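Of the Wnt genes, 4 were called higher and 3 lower. With the methods' t-test, which called 1 probe set of 45037 after adjustment, 0 were higher and 0 lower (adjusted p of 0.0642 to 0.161 for the 7 genes). Without NTG replicates 1 and 2 the counts were 2 higher and 2 lower, and without SMC-IRF9-TG replicates 1 and 2 they were 0 and 0. Leaving out 1 array gave 2 to 5 higher and 3 lower each time, with the 2 found without SMC-IRF9-TG replicate 2 or 3. With an adjusted p under 0.1 they were 6 and 3. The trended and robust prior, median centring and the filter on dim probe sets gave 5 higher, quantile normalization and the mean of probe sets 3, and each of these gave 3 lower. With the replicate number as a block the counts were 3 higher and 3 lower, Wisp2 being lost. The deviations of pools with the same number correlated at -0.15, -0.001 and 0.027, and those of pools with different numbers at -0.125 to 0.127. No pairing was seen, but with 3 pools in each group this check cannot decide whether pools were processed in pairs. The block called 730 probe sets against 1237. Fzd2 differed by 0.26 with the mean of its probe sets and by 0.00 without NTG replicates 1 and 2, against -0.52, and Fzd7 by -0.12 after quantile normalization, against 0.17. The cause was not tested. Of the other pathway genes, 7 were higher and 0 lower. The higher count was 0 with the t-test, 4 with the block, 3 after quantile normalization, 0 without SMC-IRF9-TG replicates 1 and 2, and 2 to 6 with 1 array left out. The lower count was 1 after quantile normalization, with the dim filter and without NTG replicates 1 and 2, and 2 without NTG replicate 3 and at an adjusted p under 0.1. The share of higher among all called probe sets was 86.4%, against 93.1% after median centring, 78.1% after quantile normalization and 71.1% without NTG replicates 1 and 2. Detection above background was not checked, which limits what the dim ligands show.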

Other observations

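None of the 11 measured inhibitors of the pathway outside the list of 45 genes was called. Their differences had a median of -0.30 and 10 were negative, but many of them were dim, with a median level of 2.45 to 3.22 over the arrays. The lower quartile of the arrays was itself lower in SMC-IRF9-TG (2.33 to 2.41) than in NTG (2.57 to 2.66), and without dim probe sets the median difference of all genes was 0.17 against -0.05, so no direction is read from that count. The following genes were chosen after their values were seen. Nkd1, which acts on Dishevelled inside the cell, read 6.70, 6.60 and 5.98 in NTG and 4.59, 5.22 and 5.45 in SMC-IRF9-TG, and differed by -1.34 (limma adjusted p = 0.0509). Sostdc1, a secreted relative of Sost, differed by -1.0 (limma adjusted p = 0.12). Among genes of the β-catenin-independent branches, Rac1 and Rhoa, which encode small GTPases of the cytoskeleton, differed by 0.78 and 0.66 by their brightest probe sets and were not called (limma adjusted p of 0.0862 and 0.128). A second probe set of each was called higher, with a rise of 1.14 for Rac1 (limma adjusted p = 0.016) and 1.53 for Rhoa (limma adjusted p = 0.0128). The third probe set of Rhoa differed by -0.60 (limma adjusted p = 0.45), and the mean of that of Rac1 lay under the lower quartile in both groups.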
